A study of Arabidopsis thaliana with 16 samples.

Results

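The difference between leaves and roots in their response to loss of Fd-GOGAT1 was measured on all 16 arrays of the series and for each of 22266 probe sets, the whole array except its control probe sets. For each probe set the log2 ratio of the glu1-2 mutant over the wild type in roots was subtracted from the same ratio in leaves. A positive difference therefore means a more positive, or less negative, effect of the mutation in leaves, and a negative difference the reverse. The effects in leaves and in roots are given beside it where they show what the difference is made of.

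Expression was measured on Affymetrix ATH1 arrays in Arabidopsis thaliana rosette leaves and roots that were harvested separately. Each of the 4 groups (Leaf Col(0), Leaf GLU1-KO, Root Col(0) and Root GLU1-KO) held 4 arrays, which the study's methods describe as biological replicates. Col(0) is the wild type Col-0, and GLU1-KO is glu1-2, a T-DNA insertion mutant of Fd-GOGAT1 in the same background. Both genotypes were grown in vitro for 18 days, and had not yet bolted, on Murashige and Skoog medium with 3% sucrose and 1650 mg ammonium nitrate per litre. They were kept in a 16 h photoperiod and harvested 2 h after the light came on. The mutant is a single insertion line, and the insertion was present in both organs. With 4 arrays per group the precision of every value is limited, and the p-values set each difference against the spread between these arrays.

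Fd-GOGAT is the ferredoxin-dependent glutamate synthase of plastids. Glutamine synthetase first builds ammonium into glutamine. Fd-GOGAT then transfers the amide group of glutamine to oxoglutarate and so gives glutamate. In illuminated leaves most of the ammonium is released by glycine decarboxylase during photorespiration. Roots assimilate ammonium from the medium and also use an NADH-dependent enzyme.

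The effect of glu1-2 differed between leaves and roots for 5754 probe sets, or 25.8% of those tested (limma over 16 arrays, Storey q under 0.01, called below). Of these, 2902 (13.0%) were more positive and 2852 (12.8%) more negative in leaves. At an unadjusted p under 0.05 there were 8867. The median difference among those called was 0.66 in the positive direction and -0.65 in the negative direction on the log2 scale, and 1187 differed by at least 1, of which 654 were positive. At least 2 was reached by 160, of which 118 were positive. Over all probe sets the median difference was -0.03, and the median standard error was 0.133. When every array was shifted to the same median instead, 2549 were more positive and 3575 more negative, so that the share of positive calls fell from 50.4% to 41.6%.

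Most called differences came from the leaf side. Tested alone, the leaf arrays gave 3154 probe sets higher (14.2%) and 3054 lower (13.7%) in glu1-2, and the root arrays 352 higher (1.58%) and 280 lower (1.26%). By these tests 4633 of the 5754 (80.5%) had a called effect in leaves and none in roots, and 243 (4.22%) the converse. In 159 the effect was called in both organs in opposite directions, which is 0.714% of all probe sets, and in 42 in both organs in the same direction. A further 677 were called in neither organ alone. The size of the leaf effect exceeded that of the root effect in 5166 (89.8%). These organ effects share their arrays with the difference, so the counts describe the calls and are not a test of them.

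**Figure D1:**
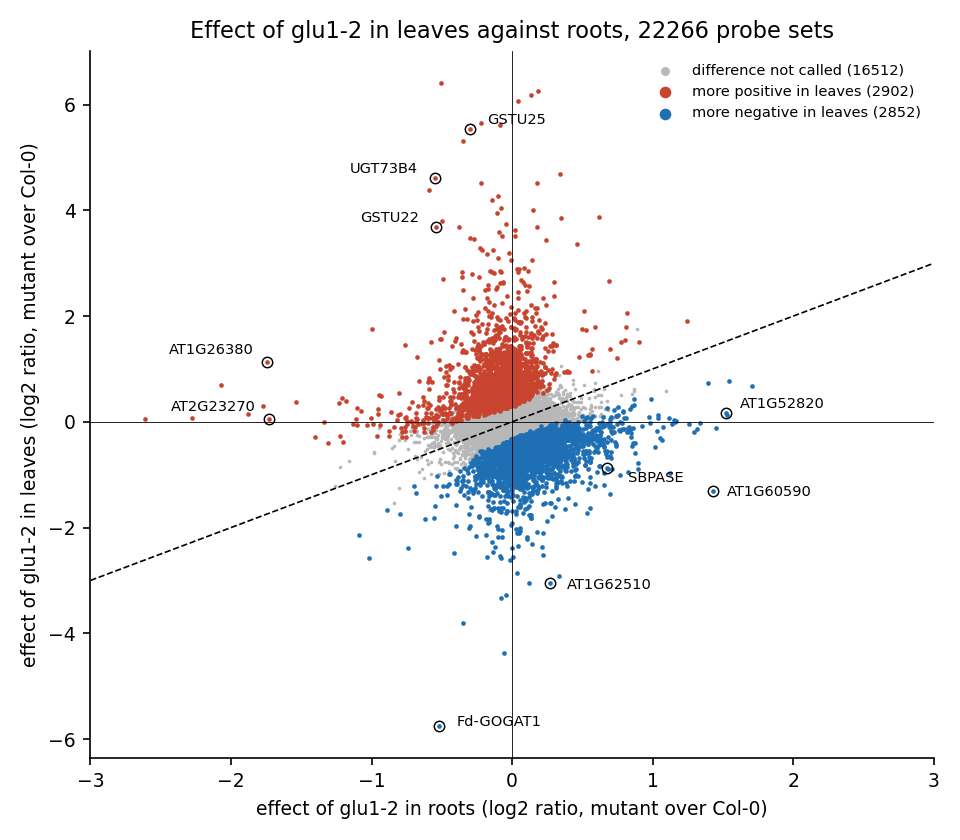
Effect of glu1-2 in leaves (vertical axis) against its effect in roots (horizontal axis), both as log2 ratios of the mutant over Col-0, 1 point per probe set; the axes have different scales and the dashed line marks equal effects. The 2902 and 2852 called probe sets lie above and below that line, and most spread along the vertical axis.

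**Figure D2:**
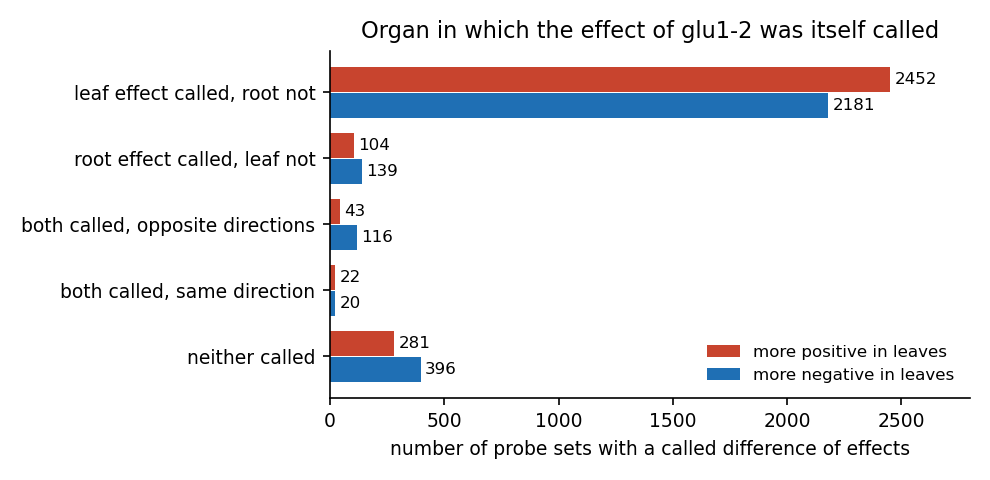
Number of probe sets with a called difference (horizontal axis), split by the organ or organs in which the effect of glu1-2 was itself called. The longest bars, 2452 and 2181, are probe sets called in leaves and not in roots; 43 and 116 were called in both organs in opposite directions.

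Of the 159 probe sets called in both organs in opposite directions, 116 were lower in glu1-2 leaves and higher in glu1-2 roots, and 43 the reverse. Over all 5754, whether or not the organ effects were called, the fitted effects were lower in leaves and higher in roots for 2111 and the reverse for 2005. The classes that need a call in roots depended on single arrays. The 159 became 84 without root glu1-2 replicate 2, 90 without root glu1-2 replicate 3, 96 without root Col-0 replicate 2, 101 without root glu1-2 replicate 4 and 105 without root glu1-2 replicate 1. The 243 became 141 without root glu1-2 replicate 2 and 160 without root Col-0 replicate 3, and the 42 became 27 without root glu1-2 replicate 2.

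Low signal touches some of these differences. An intensity of 32, or 5 on the log2 scale, was taken as the level below which signal was not separated from background. Of the 5754, 4933 reached it in at least 1 genotype of each organ. Another 452 stayed under it in both root groups, 174 in both leaf groups and 195 in all groups. For 42 called probe sets the difference had the opposite sign when taken on the linear scale. The genes described below reached an intensity of 32 in a genotype of each organ unless stated otherwise, and each belongs to a probe set with exactly 1 annotated gene. Larger differences, up to 6.92, belonged to probe sets outside this selection.

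The largest positive difference among these genes was that of GSTU25, and 4 of the 10 largest belonged to conjugating enzymes. GSTU25 (AT1G17180), a tau class glutathione transferase, had intensities of 13, 15, 16 and 20 in Col-0 leaves and 828, 756, 682 and 672 in glu1-2 leaves. In roots they were 1022, 1045, 1088 and 979 in Col-0 and 813, 866, 886 and 794 in glu1-2. The wild type leaf arrays thus stood alone at background, and the mutant leaf arrays stood next to the root arrays, without overlapping those of Col-0 roots. The difference of effects was 5.83 (standard error 0.146, limma q = 1.29e-16). It was 4.82 with means below 32 set to 32. In other terms, leaves lay 6.03 below roots in Col-0 and 0.20 below roots in glu1-2, on the log2 scale.

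UGT73B4 (AT2G15490), which transfers glucose to small molecules, had intensities of 16, 13, 20 and 12 in Col-0 leaves and 370, 395, 351 and 346 in glu1-2 leaves. In roots they were 213, 191, 208 and 226 in Col-0 and 134, 148, 144 and 146 in glu1-2. The genotypes did not overlap in either organ, with the mutant above in leaves and below in roots. The gene rose in leaves by 4.61, fell by 0.55 in roots and so differed by 5.16 (standard error 0.164, limma q = 4.05e-15), or by 4.06 with means below 32 set to 32. Its neighbour UGT73B5 (AT2G15480) rose by 3.80 in leaves, fell by 0.50 in roots and differed by 4.30. These paralogs are close in sequence, and whether their probe sets share signal was not tested.

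GSTU22 (AT1G78340), another tau class glutathione transferase, followed the same order. Its intensities were 32, 35, 36 and 43 in Col-0 leaves and 504, 476, 473 and 422 in glu1-2 leaves. In roots they were 1159, 1269, 1182 and 1183 in Col-0 and 825, 839, 855 and 774 in glu1-2. All 4 groups were apart, and the gap between the organs was smaller in the mutant. The difference was 4.23 (standard error 0.120, limma q = 6.95e-16), as the gene rose by 3.69 in leaves and fell by 0.54 in roots.

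The other genes among the 10 largest positive differences rose by 3.19 to 4.39 in leaves. AT2G41730, annotated as an expressed protein, had 39, 55, 55 and 42 in Col-0 leaves against 964, 850, 1081 and 1072 in glu1-2 leaves. It also fell by 0.59 in roots (limma q = 0.0094) and differed by 4.98. Its probe set is of the kind that Affymetrix marks as able to hybridise with more than 1 transcript. SUFE2, which activates a plastid cysteine desulfurase in the assembly of iron-sulfur clusters, differed by 4.06. Its intensity went from 30, 30, 26 and 47 to 516, 504, 509 and 481 in leaves. In roots its genotypes overlapped, at 173, 191, 165 and 191 in Col-0 and 174, 170, 163 and 160 in glu1-2.

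HSP23.5, a small heat shock protein, rose by 3.47 in leaves and differed by 3.74. AT1G17960, annotated as a putative threonyl-tRNA synthetase, differed by 3.69, or by 3.11 with means below 32 set to 32. AT2G21640, annotated as an expressed protein, differed by 3.50 and AT5G46710, of a zinc-binding family, by 3.21. In roots none of these 4 genes had a called effect, with values between -0.27 and 0.02.

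The 10 largest negative differences all came with a fall in leaves. AT1G62510 had intensities of 3481, 3310, 3456 and 2774 in Col-0 leaves and 322, 350, 491 and 420 in glu1-2 leaves. In roots they were 263, 246, 283 and 248 in Col-0 and 300, 301, 340 and 311 in glu1-2. The Col-0 leaf arrays stood above all others, and the root genotypes were apart but close. The difference was -3.32 (standard error 0.155, limma q = 1.43e-12).

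AT1G60590, which the study's annotation terms place in carbohydrate metabolism, changed in opposite directions. Its intensities were 601, 671, 615 and 645 in Col-0 leaves and 238, 246, 261 and 276 in glu1-2 leaves. In roots they were 73, 63, 66 and 76 in Col-0 and 169, 182, 192 and 204 in glu1-2. Leaves and roots were apart in both genotypes, but the mutant arrays of the organs lay nearer to each other. The gene fell by 1.31 in leaves and rose by 1.43 in roots, a difference of -2.74 (standard error 0.115, limma q = 2.62e-13).

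AT1G10640, under the same annotation term, also fell in leaves (-0.97) and rose in roots (1.12). Its root arrays read 395, 258, 363 and 334 in Col-0 and 742, 790, 695 and 679 in glu1-2, and the difference was -2.09. MSRB6, a methionine sulfoxide reductase, which repairs oxidised methionine in proteins, fell by 2.51 in leaves and differed by -2.73. Its leaf arrays read 565, 504, 410 and 476 in Col-0 and 72, 86, 88 and 96 in glu1-2. Its root arrays lay near the background limit, at 24 to 35 in Col-0 and 31 to 36 in glu1-2. With means below 32 set to 32 the difference of MSRB6 was -2.58. EXPB1, a beta-expansin, a class of proteins that loosen cell walls, fell by 2.10 in leaves and differed by -2.15. SWEET13, a sucrose exporter, differed by -2.13.

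The remaining genes among the 10 largest negative differences carry no function in the annotation used here. AT3G22240 differed by -2.59, AT5G02230 and AT2G34620 by -2.26 each, and AT3G22060 by -2.19. AT2G34620 fell by 1.72 in leaves and rose by 0.53 in roots, with root intensities of 78, 71, 78 and 74 in Col-0 and 92, 125, 117 and 104 in glu1-2. The others had no called effect in roots.

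**Figure D3:**
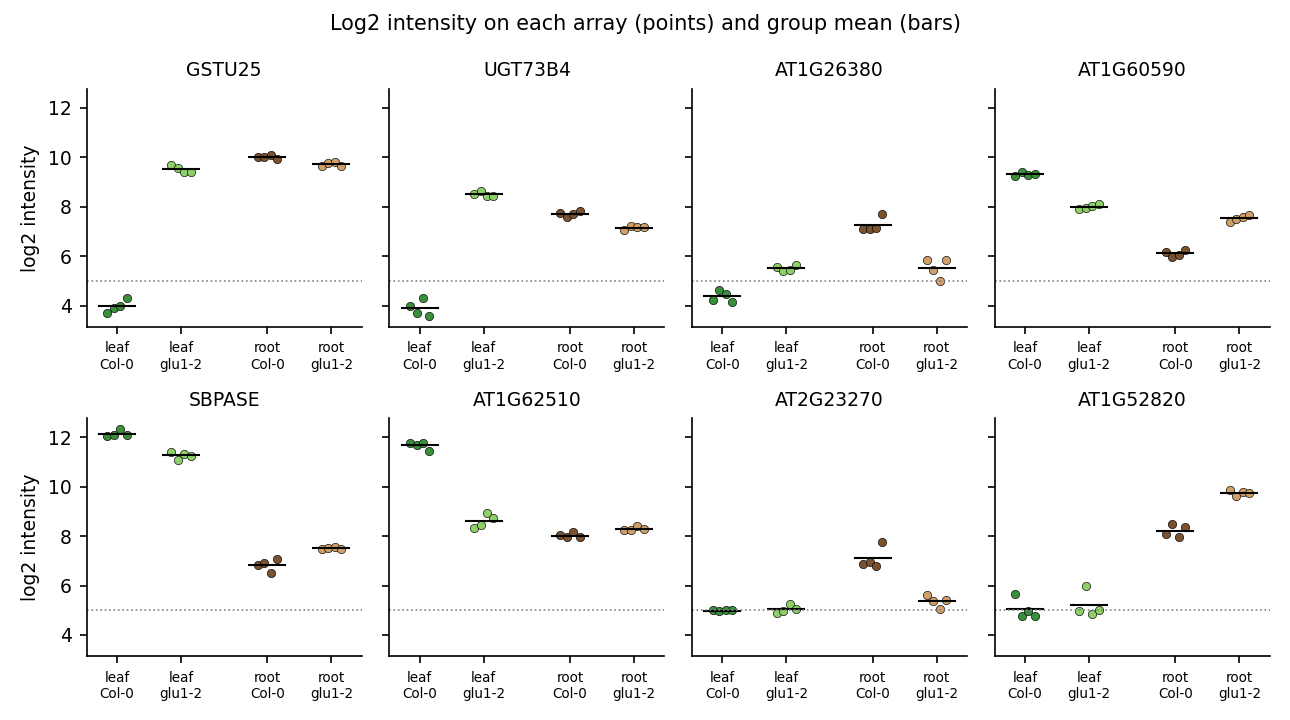
Log2 intensity (vertical axis) of 8 genes on each of the 16 arrays, with 4 points and a mean bar per group; the dotted line marks 5, the background limit. GSTU25 and UGT73B4 differ by 5.83 and 5.16 between the organs' effects, AT1G26380 by 2.87, AT1G60590 by -2.74 and SBPASE by -1.55, and AT2G23270 and AT1G52820 change in roots.

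Genes with called and opposite effects in both organs were few. Among probe sets with 1 gene and measurable in both organs there were 81, of which 21 were higher in leaves and lower in roots and 60 the reverse. The largest positive differences of this kind were those of UGT73B4, AT2G41730, UGT73B5 and GSTU22, above, and AT1G26380, annotated with an FAD-binding domain. AT1G26380 had 19, 25, 22 and 18 in Col-0 leaves and 47, 42, 44 and 50 in glu1-2 leaves. In roots it had 139, 136, 140 and 211 in Col-0 and 57, 43, 32 and 57 in glu1-2. The groups were apart in each organ, with Col-0 leaves under the background limit. The difference was 2.87 (standard error 0.233, limma q = 6.17e-09), and 2.25 with the leaf mean set to the limit.

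In the negative direction the leading genes were AT1G60590, AT2G34620 and AT1G10640, above, with AT1G65230 and GSTU18. AT1G65230 had 1893, 1739, 1802 and 1698 in Col-0 leaves and 726, 691, 701 and 644 in glu1-2 leaves. In roots it had 52, 41, 47 and 48 in Col-0 and 77, 81, 79 and 68 in glu1-2, again without overlap. It differed by -2.07. GSTU18 had 887, 801, 875 and 890 against 433, 409, 476 and 406 in leaves, and 95, 77, 87 and 107 against 161, 144, 153 and 160 in roots. This tau class glutathione transferase thus moved against GSTU22 in both organs, with a difference of -1.77 (standard error 0.127, limma q = 1.07e-09).

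A called difference with a called effect in roots and none in leaves was found in 71 genes, 28 positive and 43 negative. A leaf effect that missed the threshold could still contribute to the difference. The 5 leading positive ones fell in glu1-2 roots. AT2G23270 had 118, 124, 111 and 216 in Col-0 roots and 49, 42, 33 and 43 in glu1-2 roots, against 31 to 32 and 30 to 38 in leaves. The root genotypes were apart, and replicate 4 of Col-0 was the highest. The difference was 1.78 (standard error 0.222, limma q = 1.7e-06), and 1.56 without that array.

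AT3G12900 fell from 123, 133, 136 and 131 to 43, 59, 52 and 54 in roots, while its leaf genotypes overlapped at 33 to 47 and 32 to 54, and differed by 1.34. AT3G18250 differed by 1.35, with -0.80 in roots and 0.55 in leaves. AT5G64120, the class III peroxidase PRX71 of the cell wall, differed by 1.21, with a leaf effect of 0.63 that was not called and a root effect of -0.59. It had 1381, 1553, 1054 and 1491 in Col-0 roots and 884, 900, 907 and 916 in glu1-2 roots. AT3G60420 differed by 1.28, but by 0.72 with means below 32 set to 32.

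The 5 leading negative ones rose in glu1-2 roots. AT1G52820 had 268, 359, 248 and 333 in Col-0 roots and 923, 780, 883 and 852 in glu1-2 roots, against 27 to 51 and 29 to 64 in leaves. The root genotypes were apart and the leaf genotypes overlapped near the background limit. The difference was -1.35 (standard error 0.303, limma q = 0.000795).

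AT5G13140 had signal well above background in leaves as well. Its leaf arrays overlapped, at 720, 825, 840 and 916 in Col-0 and 813, 835, 830 and 792 in glu1-2, while its root arrays read 185, 135, 134 and 157 against 327, 355, 344 and 329. It differed by -1.17 (standard error 0.134, limma q = 5.39e-07). AT1G14960 differed by -1.50, with 1.02 in roots and -0.48 in leaves, AT5G01740 by -1.16 and AT1G30515 by -1.15.

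In genes of photosynthesis, photorespiration and chlorophyll synthesis the effect of glu1-2 was mostly more negative in leaves than in roots. Of 107 genes in 5 lists, 23 had a probe set with 1 annotated gene, and 19 of these 23 were called more negative in leaves, against 12.8% of all probe sets and 11.5% of those with 1 gene. None were called more positive, and 4 were not called. The median difference over the 23 was -0.84, against -0.03 over all genes, from a median of -0.45 in leaves and 0.39 in roots. The leaf effect was below 0 and the root effect above 0 in 18 of 23. Among all 2852 probe sets called more negative in leaves, 2111 (74.0%) had these signs, so they are not particular to these genes. All glu1-2 leaf arrays lay below all Col-0 leaf arrays in 17, and all glu1-2 root arrays above all Col-0 root arrays in 14. The shares of all probe sets with such signs or such separation were not counted, so how unusual these counts are was not tested. Over all probe sets, 13.7% had a called fall in leaves and 1.58% a called rise in roots.

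Of the 19 called, 8 were called in both organs in opposite directions, 7 in leaves only, 3 in roots only and 1 in neither. When any 1 array was left out, 17 to 19 were called. The members were chosen with earlier results of these data known, and the lists cover the part of each pathway that is named here.

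SBPASE and PRK, of the Calvin cycle, had the largest differences among the 23. SBPASE, sedoheptulose bisphosphatase, had 4231, 4395, 5125 and 4323 in Col-0 leaves and 2712, 2168, 2534 and 2401 in glu1-2 leaves. In roots it had 113, 119, 92 and 136 in Col-0 and 180, 182, 186 and 178 in glu1-2. The groups did not overlap in either organ, and the difference was -1.55 (standard error 0.143, limma q = 3.29e-08). Leaves lay 5.31 above roots in Col-0 and 3.75 above roots in glu1-2, on the log2 scale, so the organs lay nearer in the mutant. PRK, phosphoribulokinase, which makes the acceptor of carbon dioxide, differed by -1.46. Its root arrays read 264, 271, 211 and 255 in Col-0 and 462, 447, 489 and 429 in glu1-2, a rise of 0.87, while in leaves it fell by 0.59.

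RCA, the activase of Rubisco and the only leaf mesophyll marker of 7 with a probe set here, belongs to the same list. Its log2 means were 13.55 in Col-0 leaves and 13.34 in glu1-2 leaves, and 9.89 and 10.53 in Col-0 and glu1-2 roots. It rose in roots (0.64) and had no called effect in leaves (-0.20), with a difference of -0.84. Its root arrays read 954, 1091, 877 and 900 in Col-0 and 1451, 1481, 1539 and 1445 in glu1-2. In bulk tissue fewer cells of a type and less RNA per cell cannot be told apart, and green tissue carried over with the roots was not tested as a part of the root values. Of 6 root hair markers 2 had a probe set, EXPA7 and EXPA18, with differences of -0.21 and -0.63, of which the second was called. None of the 5 endodermis markers had one.

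In photorespiration all 4 measured genes were called. HPR1, the peroxisomal hydroxypyruvate reductase, had 7524, 7736, 7953 and 8001 in Col-0 leaves and 5189, 3820, 5587 and 4944 in glu1-2 leaves. In roots it had 365, 359, 284 and 361 in Col-0 and 564, 535, 609 and 517 in glu1-2. The genotypes were apart in both organs, and the difference was -1.40 (standard error 0.148, limma q = 2.11e-07). GDCH3, an H protein of glycine decarboxylase, differed by -0.86, from a root rise of 0.59 and a leaf value of -0.26 that was not called.

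GLDT, the T protein of glycine decarboxylase, and GLYK, glycerate kinase, showed the leaf side alone. GLDT fell by 0.60 in leaves, had -0.01 in roots and differed by -0.59. GLYK fell by 0.55 in leaves and differed by -0.50 (limma q = 0.00627), a call that ended on leaving out any of 9 single arrays, with q up to 0.0146.

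All 5 measured photosystem subunits were called. PSB27, an assembly factor of photosystem II, differed by -0.92 and PSBY, a small subunit of it, by -0.91. PSAN and PSAE1, subunits of photosystem I, differed by -0.85 and -0.73. PSBY had 9714, 8768, 8787 and 8589 in Col-0 leaves against 6860, 5960, 6868 and 6646 in glu1-2 leaves, and 490, 416, 414 and 442 against 577, 620, 624 and 605 in roots. Both organs showed separate genotypes, in opposite order.

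Of the antenna proteins 3 were measured, all of the CP29 family. LHCB4.2 fell by 0.45 in leaves, rose by 0.49 in roots and differed by -0.93. LHCB4.1 differed by -0.53 (limma q = 0.00171), but by -0.31 (q = 0.0143) after renewed quantile normalization. LHCB4.3 rose in both organs, by 0.38 in leaves and by 0.63 in roots, and its difference of -0.25 was not called.

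In tetrapyrrole synthesis, 5 of 8 measured genes were called. CHLM, the methyltransferase of magnesium protoporphyrin, differed by -1.08, PORB, a protochlorophyllide oxidoreductase, by -0.97, and the uroporphyrinogen decarboxylases HEME2 and HEME1 by -0.85 and -0.81. CHLM read 3441, 3016, 3218 and 3109 in Col-0 leaves and 1922, 2033, 1851 and 1919 in glu1-2 leaves. In roots it read 317, 268, 284 and 322 against 369, 397, 384 and 365, and its root effect of 0.35 was not called. CHLI2 differed by -0.82, or -0.62 with root means below 32 set to 32. The genes of the first steps were not called, at -0.30 for GSA1, -0.20 for HEMB1 and 0.09 for HEMA2.

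**Figure D4:**
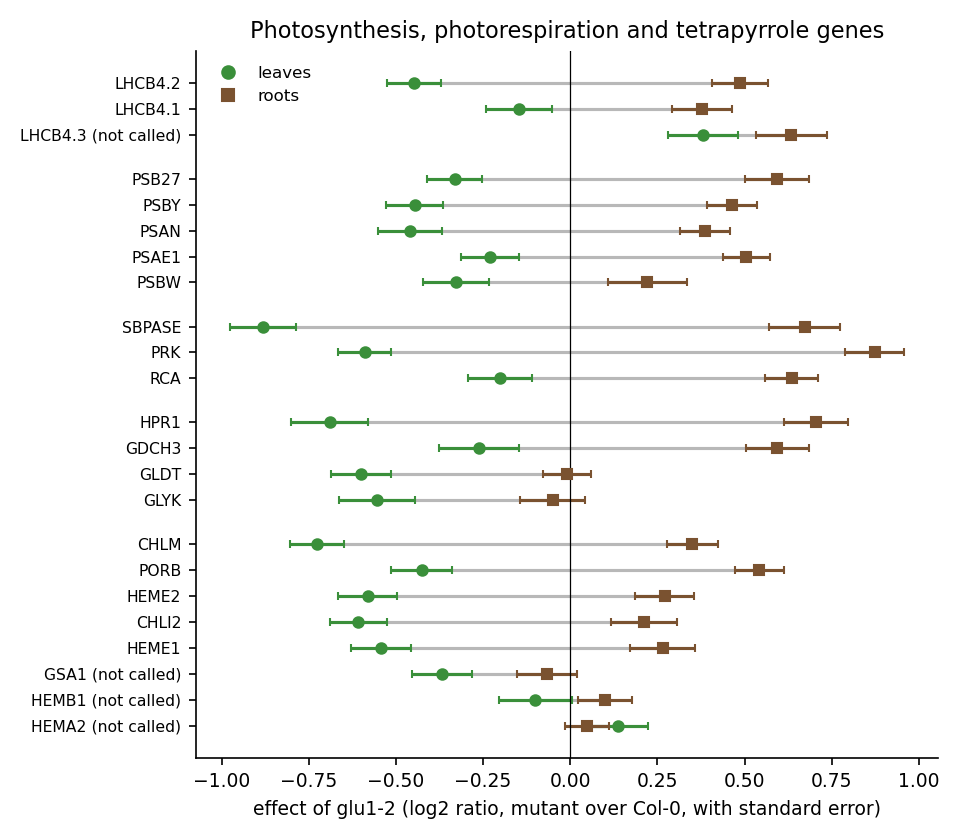
Effect of glu1-2 (horizontal axis, log2 ratio of mutant over Col-0, with standard error) in leaves (circles) and roots (squares) for the 23 measured genes of 5 lists, 1 row per gene. In 18 rows the leaf value lies below 0 and the root value above 0, and SBPASE shows the widest gap, -1.55.

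UDP-glycosyltransferases attach sugars to hormones, flavonoids and foreign compounds. Of 51 measured members 17 (33.3%) were called more positive in leaves, against 12.2% of probe sets with 1 gene, 5 (9.80%) more negative, against 11.5%, and 29 were not called. The 17 became 13 where only probe sets with an intensity of 32 in a genotype of each organ were tested, and 11 with a difference of at least 1. The median difference was 0.23, against -0.03 over all genes. The call came from leaves alone in 17 of these 22, from both organs in opposite directions in 3 and from neither alone in 2. Leaving out any 1 array gave 16 to 18 positive calls.

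After UGT73B4 and UGT73B5, the largest differences were in UGT73C1 (3.86), UGT87A2 (2.70), UGT73B1 (2.27) and UGT84A3 (2.08). UGT73C1 read 20, 19, 25 and 15 in Col-0 leaves and 290, 354, 303 and 309 in glu1-2 leaves, but 13 to 15 and 14 to 17 in roots. Its root signal lay at background in both genotypes, so that a root effect could not be seen, and with means below 32 set to 32 the difference was 3.29. UGT87A2 read 164, 124, 209 and 188 against 973, 1128, 849 and 884 in leaves and 235, 210, 323 and 239 against 202, 212, 210 and 247 in roots. It was separate in leaves and overlapped in roots.

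UGT76E12 differed by 2.00, UGT76B1 by 1.74, UGT74D1, which acts on auxins, by 1.39, and UGT72E1, which acts on lignin precursors, by 1.34. The negative calls were smaller, from -0.45 to -0.68. Among them were UGT76C1 (-0.68), which conjugates cytokinins, and UGT78D1 (-0.60), a rhamnosyltransferase of flavonols.

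The glutathione transferases with a probe set of 1 annotated gene, a part of the family, were not shifted as a group. Of 14 measured members 3 (21.4%) were called more positive and 2 (14.3%) more negative, against 12.2% and 11.5% of probe sets with 1 gene, and the median was -0.00. GSTU25 and GSTU22 therefore stood apart from the other measured members, most of which did not pass. Members without such a probe set were not counted, so this does not describe the whole family. GSTU16 differed by 0.65 and GSTF4 by -0.45. Of 24 measured cytochrome P450 genes, most of them of the CYP71B family, 4 were called positive and 4 negative (16.7% each, near the same 12.2% and 11.5%), with a median of -0.15.

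Neighbouring CYP71B genes went in opposite directions. CYP71B22 rose in leaves from 38, 39, 42 and 46 to 92, 88, 106 and 97 and differed by 1.26. CYP71B24 fell in leaves from 77, 75, 106 and 97 to 26, 25, 35 and 28 and differed by -1.56. Both read 15 to 24 in all root arrays, under the background limit. CYP71B23 differed by 1.06. CYP71B35 differed by -0.78, with root arrays of 14 to 21, also under the limit. Signal shared between these close paralogs was not tested.

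**Figure D5:**
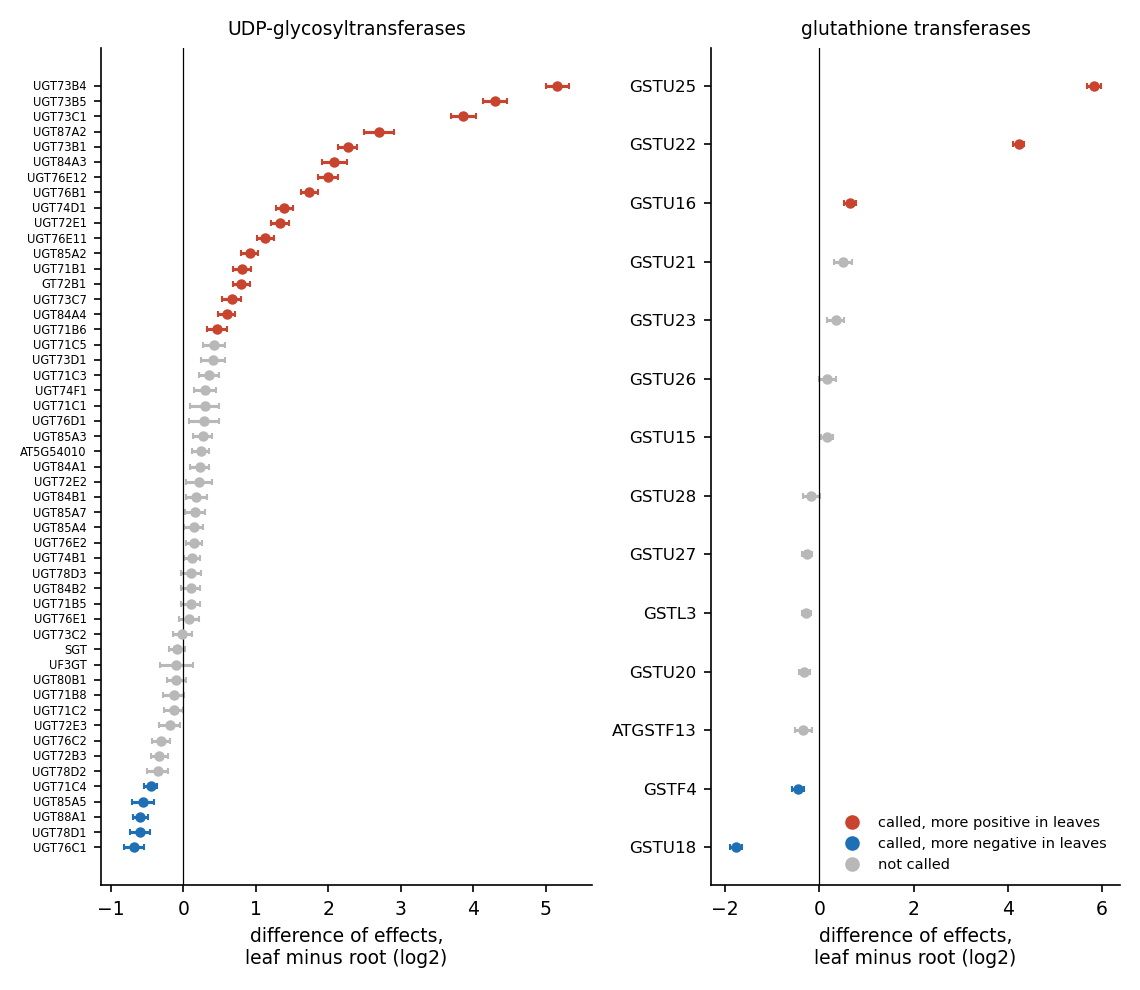
Difference of the effects of glu1-2, leaf minus root (horizontal axis, log2, with standard error), for 51 UDP-glycosyltransferases and 14 glutathione transferases, 1 row per gene and coloured by call. The upper UDP-glycosyltransferases reach 5.16 and 17 are called positive, while of the glutathione transferases 3 are positive, led by GSTU25 at 5.83, and 2 negative.

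Among 27 measured expansins and xyloglucan endotransglucosylases, which remodel cell walls, 7 (25.9%) were called negative and 1 (3.70%) positive, against 11.5% and 12.2% of probe sets with 1 gene, and 19 were not called. The median difference was -0.17. XTH32 fell in leaves from 954, 1009, 819 and 873 to 564, 585, 480 and 540, and rose in roots from 251, 214, 238 and 207 to 348, 337, 332 and 315. Its genotypes were apart in both organs, and it differed by -1.31. EXPA8 fell by 0.99 in leaves, had no called effect in roots and differed by -0.82.

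XTH19 was the positive exception. It read 45, 35, 53 and 31 in Col-0 leaves and 184, 138, 174 and 194 in glu1-2 leaves, beside 1117, 1383, 1165 and 1130 in Col-0 roots and 1071, 1035, 1134 and 1000 in glu1-2 roots. Leaves were separate, roots overlapped, and the difference was 2.27 (standard error 0.192, limma q = 1.07e-08).

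In the stress lists few members were measured and their directions were mixed. Of 6 heat shock genes 2 (33.3%) were called, both positive, against 12.2% of probe sets with 1 gene. They were HSP23.5 (3.74), above, and HSP17.6B (2.05), whose leaf arrays went from 29, 24, 32 and 26 to 108, 107, 125 and 112 while the root genotypes overlapped at 121 to 154 and 123 to 146. The other 4 lay between -0.25 and 0.19.

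Of 4 cold and dehydration genes, ZAT10, a zinc finger repressor, was positive (1.14) and COR15A, a protective protein of chloroplasts, negative (-0.92). That is 25% each way, against 12.2% and 11.5% of probe sets with 1 gene, in a list of very few members. COR15A rose in roots, from 473, 333, 378 and 423 to 885, 783, 775 and 833, and overlapped in leaves at 1321 to 1486 and 1417 to 1785. Of 5 flavonoid genes only UGT78D1 was called (20% negative, against the same 11.5%). DFR, which makes leucoanthocyanidins, had -0.48 and was not called.

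Both measured iron regulators, of 19 listed genes, were called negative, against 11.5% of probe sets with 1 gene. BHLH101, a transcription factor of the iron deficiency response, fell in both organs, from 155, 153, 121 and 151 to 21, 30, 24 and 23 in leaves and from 52, 39, 50 and 44 to 25, 21, 28 and 18 in roots. The genotypes were separate in both, and it fell by 2.57 in leaves and by 1.02 in roots, a difference of -1.55 (standard error 0.190, limma q = 1.3e-06). Both mutant means were under the background limit, and with these set to 32 the difference was -1.65. PYE, another regulator of this response, fell by 0.71 in leaves and differed by -0.64.

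Single members of other lists were also called, where 12.2% of probe sets with 1 gene were called positive and 11.5% negative. GI, a component of the circadian clock, rose in leaves from 449, 478, 488 and 460 to 761, 791, 682 and 743 and overlapped in roots, with a difference of 0.60. PDF1.2A, a plant defensin of the jasmonate response, rose in leaves from 84, 45, 48 and 108 to 203, 221, 312 and 187 and differed by 1.88. Its root arrays read 24 to 28, under the background limit in both genotypes, so that a root effect could not be seen. With means below 32 set to 32 the difference was 1.77. SWEET15, a sugar exporter of senescing leaves, fell by 0.99 in leaves and differed by -0.79.

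Of 7 WRKY transcription factors 2 (28.6%) were called positive and 2 (28.6%) negative, against 12.2% and 11.5% of probe sets with 1 gene. With so few members these shares say little about the family. WRKY47 (0.77) and WRKY6 (0.71) were positive. WRKY20 (-0.41) and ZAP1 (-0.38) were called negative, but these calls were weak. They ended by Benjamini-Hochberg adjustment (q = 0.0161 and 0.016), and on leaving out any of 11 and 9 single arrays, with q up to 0.0168 and 0.0173. Of 4 genes commonly used as references none were called, with a median difference of -0.03.

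Transcripts of the organellar genomes gave weak calls. Of 69 plastid genes 8 (11.6%) were called negative, near the 11.5% of probe sets with 1 gene, and none positive, against 12.2%. The median difference was -0.51, with 64 of 69 below 0, against 7077 of 13086 over all genes. The calls were psbD (-1.60, limma q = 0.0092), psbC (-1.17), psbA (-0.97) and psbE (-0.89), which encode parts of photosystem II, with psbL, psbF, psbZ and rpl33. The leaf arrays of psbA read 952, 572, 661 and 538 in Col-0 and 287, 279, 443 and 283 in glu1-2, apart from each other, and its root arrays overlapped. For psbD, replicate 3 of glu1-2 leaves read 123 where the others read 664, 474 and 780, and without it the difference was -1.01. The same array was low for psbC, at 552 against 1071 to 1433, and for psbE, at 1711 against 3562 to 4130, and without it they differed by -0.86 and -0.60.

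The plastid count of 8 became 3 without root glu1-2 replicate 1, root Col-0 replicate 2 or root Col-0 replicate 4. It became 4 without leaf Col-0 replicate 1 or 2 or root glu1-2 replicate 2 or 3, and it was 1 under robust moderation along an intensity trend. Of 16 mitochondrial genes 3 (18.8%) were called, all negative, against 11.5% of probe sets with 1 gene. Among these nad1 fell in leaves from 59, 61, 65 and 68 to 39, 36, 41 and 34, and differed by -0.61. All group means of nad7 and 3 of those of nad2 were under the background limit, and with such means set to 32 the difference was 0 for nad7 and -0.22, in place of -0.70, for nad2. How far these probe sets follow transcript abundance was not tested.

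Genes of nitrogen assimilation could not be counted, because none of the 18 listed has a probe set named by the platform annotation. Several were named by matching replicate values to the study's list of genes induced in leaves, so that a leaf rise is given by the naming and the differences are a description. Genes that the study reports as lower in leaves, such as the asparagine synthetases ASN1 and ASN2, could not be named in this way. The cytosolic glutamine synthetases GLN1.1 and GLN1.3 differed by 1.20 and 0.77, and GDH2, a glutamate dehydrogenase, by 1.18. The glutamate synthases GLU2 and GLT1 differed by 1.06 and 0.82, and the nitrite reductase NIR1 by 0.88. Among transporters, AMT2, for ammonium, differed by 1.38, NRT1.7, for nitrate, by 1.27, NRT1.8 by 1.02, AAP5, for amino acids, by 0.97 and NRT3.1 by 0.77. NRT1.8 read 14 to 23 in Col-0 leaves, 23 to 37 in glu1-2 leaves and 22 to 34 in roots. Its signal was thus near or under the background limit in all groups, which leaves its difference uncertain. GLN1.1 read 592, 534, 625 and 601 in Col-0 leaves against 1544, 1426, 1448 and 1357 in glu1-2 leaves, and 3102, 3265, 2660 and 2807 against 3172, 3153, 3293 and 3030 in roots, where the genotypes overlapped.

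The root side was not the same in all of them. NRT1.7 also rose in roots, by 0.49 (limma q = 0.00106), from 75, 78, 66 and 77 to 105, 101, 105 and 105. In GLT1 and NIR1 every glu1-2 root array lay below every Col-0 root array, at 2229 to 2367 against 2451 to 2524 and at 2262 to 2393 against 2420 to 2829, and neither root effect was called.

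UMAMIT14, an amino acid exporter, was the only one of these 12 genes with a negative difference. Its arrays read 47, 53, 39 and 66 in Col-0 leaves and 83, 90, 74 and 75 in glu1-2 leaves. In roots they read 131, 140, 137 and 139 against 383, 377, 561 and 492. The mutant was above the wild type in both organs without overlap, by 0.67 in leaves and 1.71 in roots, a difference of -1.04 (standard error 0.193, limma q = 0.000151).

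The probe set taken for Fd-GOGAT1 itself was chosen by its closeness to values stated for this gene on these arrays, so its difference of -5.23 only describes it. It read 2472, 1245, 1948 and 1924 in Col-0 leaves and 35, 29, 39 and 35 in glu1-2 leaves. Both root groups read 20 to 36, at the background limit, so that a fall in roots of the leaf's size could not have been seen.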

How the data were processed

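RNA of 16 samples was hybridised to 16 ATH1 arrays. The deposited intensity values were made by the authors with RMA (quantile normalization, then a robust linear fit that summarises each probe set; version not given in the sources used here), and the authors deposited them on a linear scale as whole numbers. They were taken to log2 without further normalization. The 13 control probe sets were left out. Leaf arrays had a median intensity of 97 to 102 and root arrays of 106 to 110, and 30.1% to 31.2% of the values of an array lay under 32. The median SD of log2 values between replicates was 0.13 in both leaf groups, 0.11 in Col-0 roots and 0.10 in glu1-2 roots.

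The contrast (leaf glu1-2 minus leaf Col-0) minus (root glu1-2 minus root Col-0) was fitted over 16 arrays and 4 groups without a block, with limma 3.58.1 in R 4.3.3 and two-sided moderated tests. The effect in each organ came from its own arrays. Storey q-values were computed with a smoother (3 degrees of freedom, lambda 0 to 0.95 in steps of 0.05), which gave a share of 0.483 for probe sets without a difference, and the threshold was 0.01. Python 3.11.15 and matplotlib 3.10.9 were used for annotation and figures. The fit was also run on simulated data with equal spread in all groups, the outcome of which is not reported here.

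Names came from the platform annotation, updated through a RefSeq gene table, and for the nitrogen genes and Fd-GOGAT1 from a match of values to the study's own lists. Lists were counted over probe sets with exactly 1 gene, 1 probe set per gene. Members, lists and named genes were chosen with earlier results of these data known. Named genes are the 10 largest differences in each direction, the 5 largest each way among those called in both organs in opposite directions and among those called in roots alone, and up to 4 called members of each list; other members are given as values. List members under the background limit in 1 organ were named as well, a choice made after their values were seen. The pattern for cytochrome P450 names was corrected after it had also taken cyclophilins. The alternatives were other adjustments and thresholds, a replicate block, filters on dim probe sets, other normalizations, moderation that was robust and followed an intensity trend, array weights, a restriction to probe sets of 1 gene, and leaving out each array in turn. Promoter motifs were not analysed here.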

Additional observations from a re-analysis of the deposited data

Results flagged for a closer look

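The test of the difference between the organs itself singles out the 2902 probe sets more positive and the 2852 more negative in leaves. Among them were 19 of 23 measured genes of the photosynthesis lists and 17 of 51 UDP-glycosyltransferases. There were also 8 of 69 plastid genes (11.6%), near the 11.5% of probe sets with 1 gene that were called more negative. By the same test (limma over 16 arrays, q under 0.01), the named genes with a positive difference of effects, leaf minus root on the log2 scale, were GSTU25 (5.83), UGT73B4 (5.16), AT2G41730 (4.98), UGT73B5 (4.30), GSTU22 (4.23), SUFE2 (4.06), UGT73C1 (3.86), HSP23.5 (3.74), AT1G17960 (3.69), AT2G21640 (3.50), AT5G46710 (3.21), AT1G26380 (2.87), UGT87A2 (2.70) and XTH19 (2.27). Smaller positive differences were found in HSP17.6B (2.05), PDF1.2A (1.88), AT2G23270 (1.78), AMT2 (1.38), AT3G18250 (1.35), AT3G12900 (1.34), AT3G60420 (1.28), NRT1.7 (1.27), CYP71B22 (1.26), AT5G64120 (1.21), GLN1.1 (1.20), GDH2 (1.18), ZAT10 (1.14) and CYP71B23 (1.06). Below these came GLU2 (1.06), NRT1.8 (1.02), AAP5 (0.97), NIR1 (0.88), GLT1 (0.82), NRT3.1 (0.77), GLN1.3 (0.77), WRKY47 (0.77), WRKY6 (0.71), GSTU16 (0.65) and GI (0.60).

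The named genes with the most negative differences were Fd-GOGAT1 (-5.23), AT1G62510 (-3.32), AT1G60590 (-2.74), MSRB6 (-2.73), AT3G22240 (-2.59), AT5G02230 (-2.26), AT2G34620 (-2.26), AT3G22060 (-2.19), EXPB1 (-2.15), SWEET13 (-2.13), AT1G10640 (-2.09), AT1G65230 (-2.07), GSTU18 (-1.77) and psbD (-1.60). Next came CYP71B24 (-1.56), SBPASE (-1.55), BHLH101 (-1.55), AT1G14960 (-1.50), PRK (-1.46), HPR1 (-1.40), AT1G52820 (-1.35), XTH32 (-1.31), AT5G13140 (-1.17), psbC (-1.17), AT5G01740 (-1.16), AT1G30515 (-1.15), CHLM (-1.08) and UMAMIT14 (-1.04). Smaller negative differences were found in PORB (-0.97), psbA (-0.97), LHCB4.2 (-0.93), PSB27 (-0.92), COR15A (-0.92), PSBY (-0.91), psbE (-0.89), GDCH3 (-0.86), HEME2 (-0.85), PSAN (-0.85), RCA (-0.84), EXPA8 (-0.82), CHLI2 (-0.82) and SWEET15 (-0.79). The smallest were those of CYP71B35 (-0.78), PSAE1 (-0.73), nad2 (-0.70), PYE (-0.64), EXPA18 (-0.63), nad1 (-0.61), UGT78D1 (-0.60), GLDT (-0.59), LHCB4.1 (-0.53), GLYK (-0.50), WRKY20 (-0.41), nad7 (-0.41) and ZAP1 (-0.38). GLU2, GLT1, GLN1.1, GLN1.3, GDH2, NIR1, AMT2, NRT1.7, NRT1.8, NRT3.1, AAP5 and UMAMIT14 were named through genes induced in leaves, and the probe set of Fd-GOGAT1 by its values, so these differences only describe them.

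In 22 of 376 groups of 4 arrays (5.85%), 1 array lay apart from the others by Dixon's criterion, which chance gives in about 1 in 20 groups. The intensities were 320 for AT5G02230 in root Col-0 replicate 3, 147 for SWEET13 in root glu1-2 replicate 4, 211 for AT1G26380 in root Col-0 replicate 4, 801 for GSTU18 in leaf Col-0 replicate 2, 31 for AT2G23270 in leaf Col-0 replicate 2, 216 for AT2G23270 in root Col-0 replicate 4, 72 for AT3G60420 in root Col-0 replicate 4, 64 for AT1G52820 in leaf glu1-2 replicate 2, 284 for HPR1 in root Col-0 replicate 3, 2820 for GLDT in leaf glu1-2 replicate 3 and 2902 for PORB in leaf glu1-2 replicate 2. They were also 121 for BHLH101 in leaf Col-0 replicate 3, 234 for WRKY20 in root glu1-2 replicate 4, 165 for psbC in root Col-0 replicate 3, 443 for psbA in leaf glu1-2 replicate 3, 1711 for psbE in leaf glu1-2 replicate 3, 12 for nad7 in leaf glu1-2 replicate 1, 101 for NRT1.7 in root glu1-2 replicate 2, 128 for NRT3.1 in leaf Col-0 replicate 2, 23 for NRT1.8 in leaf glu1-2 replicate 1, 2524 for GLT1 in root Col-0 replicate 1 and 2393 for NIR1 in root glu1-2 replicate 3. The flags of AT2G23270 in leaf Col-0, nad7 and NRT1.7 rest on small gaps between whole numbers. The other arrays of these groups all read 32, 14 and 105, in that order. Root Col-0 replicate 4 was high for AT1G26380, AT2G23270 and AT3G60420. Without it their differences were 2.72, 1.56 and 1.06, and each was still called.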

How the results depend on the processing

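The numbers of probe sets more positive and more negative in leaves, 2902 and 2852, kept within 1.5 times under other adjustments, filters, normalizations, weights and blocks, except where a difference of at least 1 was required (654 and 533) or only probe sets of exactly 1 gene were tested (1554 and 1475), which tests fewer probe sets. Leaving out 1 array gave 2597 to 3041 and 2572 to 2941. Under a difference of at least 1, the 19 photosynthesis genes became 4, the 17 UDP-glycosyltransferases 11 and the 8 plastid genes 2. The 8 plastid genes were 3 by Benjamini-Hochberg adjustment, 14 at q under 0.05 and 1 under robust moderation along an intensity trend. Leaving out 1 array gave 17 to 19, 16 to 18 and 3 to 10. At q under 0.05 the probe sets called in roots only, in both organs in opposite directions and in both in the same direction were 466, 453 and 141, and with organ effects from the fit over 16 arrays those called in neither were 399. Leaving out 1 array gave 4097 to 4715 called in leaves only, 141 to 254 in roots only, 84 to 158 in opposite directions, 27 to 43 in the same direction and 479 to 819 in neither. The cause of these changes was not tested, except that fewer arrays or probe sets enter some fits.

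Deviations of arrays with the same replicate number were weakly correlated at most (-0.04 to 0.13). Such low values cannot settle whether the numbers pair the samples. With the replicate number as a block 2880 and 2859 probe sets were called, and with a block by genotype 2822 and 2764. The block by number ended the calls of WRKY20 (q = 0.0104), ZAP1 (0.011) and nad7 (0.0108), and the block by genotype also did (0.0147, 0.0159 and 0.013). Of 94 named genes, 85 kept direction and call under every alternative that gave them a value, and 0 changed direction. With an intensity of at least 32 in each organ 87 had a value, without the dimmest probe sets 92, and the restriction to 1 gene was run for counts only. The calls of GLYK, WRKY20, ZAP1, psbA, psbC, psbD, psbE, nad7 and LHCB4.1 ended under at least 1. Depth has no counterpart on arrays. Values under an intensity of 32 and the 4 arrays per group limit what could be detected.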
